A study of Mus musculus with 12 samples.

Results

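Livers of MOER mice given oil were compared with livers of wild type mice given oil, on 4 of the 12 arrays of the study, 2 of each genotype. The comparison took in every probe set that was brighter than the 40th percentile of its own array on at least 2 of the 12 arrays. This kept 19119 of 28815 probe sets, which covered 13987 genes, each represented by its tested probe set of highest mean. Transcripts of pancreatic acinar cells, the enzyme-secreting cells of the pancreas, are described apart from those of the liver.

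RNA of whole liver was hybridised to an Affymetrix whole-transcript array for mouse genes. Per the labels, MOER mice have oestrogen receptor alpha at the membrane alone, ERKO mice have no oestrogen receptor alpha, and wild type mice have the receptor unaltered. All 3 genotypes carry the strain label C57BL/6, and all mice were ovariectomized at 3 months of age and left for 1 week before injection. The 3 oil groups (MOER, ERKO and wild type) then received 0.1 mL of oil daily for 3 days, and the other 3 groups received 100 µg of PPT, an agonist selective for the receptor. Each array carried the pooled RNA of 3 animals, and a repeat of the study gave the second array of each group. The sources used here name neither the promoter that drives the membrane receptor nor the cells that make it. Nothing in the labels shows that the repeat used other animals, so the p-values below measure the spread between these arrays, which may be technical.

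Oestrogen receptor alpha is a ligand-activated transcription factor of the nucleus, and a fraction of it is held at the plasma membrane, where it starts kinase signalling. In liver it acts on lipid and steroid metabolism, and many sex-biased liver genes answer to the pattern of growth hormone release, which oestrogen shapes at the pituitary. Mice without ovaries have little circulating oestrogen, so a comparison under oil shows the 2 genotypes without added ligand.

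The 12 arrays had median intensities of 77.5 to 85.3 and were compared as deposited. Within a group, its 2 arrays had correlations of 0.981 to 0.996 across tested probe sets, ERKO oil having the lowest, where 162 probe sets differed by over 2-fold between its arrays. In MOER oil 17 probe sets did so and in wild type oil 21. Albumin (Alb), the defining hepatocyte transcript, read 21848 and 20179 in MOER oil, against 20424 and 20176 in wild type oil, and all 4 arrays held liver RNA by this marker. Intensities were analysed as log2(intensity + 16), and a probe set was called at a Benjamini-Hochberg adjusted p under 0.05 in a limma fit of all 12 arrays. Differences below are log2(intensity + 16) in MOER minus wild type with their standard error. Where both arrays of 1 group lay at or below their own 40th percentile (intensities of 53.6 to 61.0), that group is called dim. The fold is then taken with dim arrays raised to that percentile and is given as "at least".

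Esr1, which encodes oestrogen receptor alpha, read 126 and 128 in MOER oil, against 347 and 365 in wild type oil. The 2 genotypes did not overlap, and the difference was -1.38 ± 0.093 (adjusted p = 1.06e-05). ERKO oil read 126 and 118, so the Esr1 probe set was low in both modified genotypes and does not tell MOER from ERKO (MOER minus ERKO 0.05, adjusted p = 0.816). Among the 20 protein-coding genes nearest to Esr1 in gene order, 10 were tested and 0 were called, with limma differences of -0.29 to 0.43 and a smallest adjusted p of 0.176. What the Esr1 probes cover in the modified alleles was not tested.

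MOER and wild type livers differed at 1082 probe sets, 5.66% of those tested, of which 407 (2.13%) were higher and 675 (3.53%) lower in MOER. Counted as genes, 300 were higher (2.14%) and 509 lower (3.64%). Most of these differences were small, and only 87 genes (0.622%) differed by at least 2-fold, 58 of them higher (0.415%) and 29 lower (0.207%). Of the 58 higher genes, 21 were acinar transcripts, and with the acinar and islet lists set aside 37 higher and 29 lower genes remained. Probe sets without a gene symbol added 9 higher and 61 lower past 2-fold, and the 61 gave only 11 distinct sets of values. The number of calls depended on single arrays: it was 433 or 249 without MOER oil array 1 or 2, 273 or 284 without wild type oil array 1 or 2, and 3332 without either ERKO oil array, whose spread enters the shared variance. Centring the arrays on a list of hepatic secreted proteins shifted the median of all differences to -0.15, against -0.02 as deposited, and gave 248 higher and 3263 lower calls, so small differences depend on the scale.

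**Figure D1:**
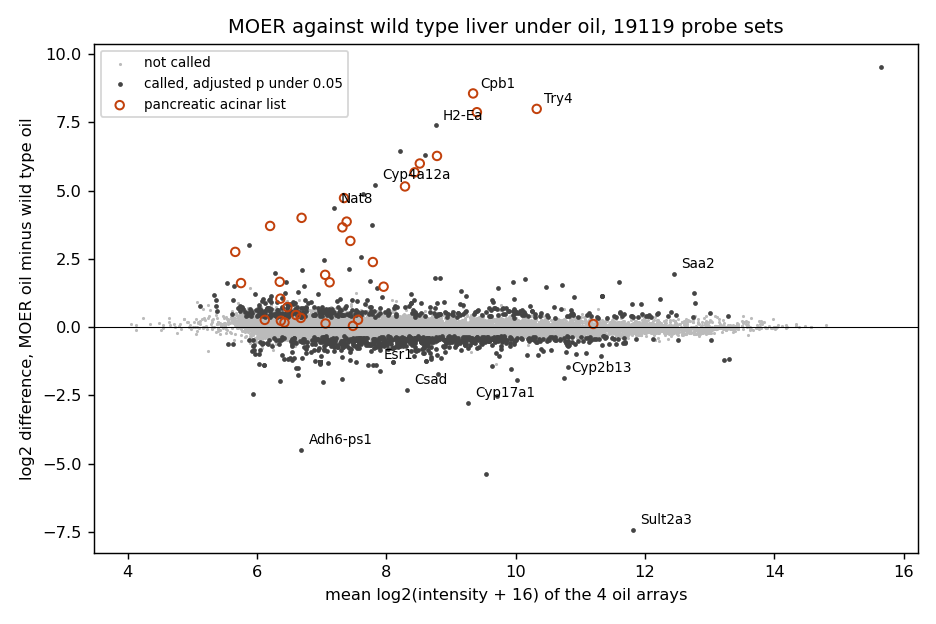
Each point is 1 of 19119 probe sets, with the mean log2(intensity + 16) of the 4 oil arrays on the x axis and the log2 difference, MOER oil minus wild type oil, on the y axis. Dark points were called at an adjusted p under 0.05, and open circles mark the pancreatic acinar list. Most of the points above 3 are acinar transcripts, with H2-Ea, Cyp4a12a and Nat8 among the others, and Sult2a3 at -7.42 is the lowest. The unlabelled point at the top right is an amylase probe set shared by 3 gene symbols.

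Among liver genes the largest difference upward was in H2-Ea, the alpha chain of the MHC class II molecule I-E, which presents peptides to T cells. It read 5605 and 5622 in MOER oil, against 15.4 and 19.8 in wild type oil, where it was dim. H2-Ea was thus at least 104-fold higher in MOER (7.39 ± 0.089, adjusted p = 7.88e-12). ERKO oil was dim too at 23.2 and 23.4, while MOER given PPT read 2656 and 2603. As background, C57BL/6 mice carry an H2-Ea allele that is not transcribed.

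Other class II genes were close between the genotypes. H2-Eb1, the beta chain that pairs with the H2-Ea product, read 606 and 598 in MOER oil, against 433 and 410 in wild type oil (0.50 ± 0.12, adjusted p = 0.0451), a call lost under 11 of 23 alternatives, among them leaving out any 1 of the 4 oil arrays. H2-Aa read 1120 and 1058 in MOER oil, against 795 and 849 in wild type oil (0.40, adjusted p = 0.0980). Of 10 tested class II genes 2 were called higher and 0 lower. In a list of 11 tested genes known to vary between mouse strains 3 were called higher and 1 lower. Nnt, the mitochondrial nicotinamide nucleotide transhydrogenase, part of which is deleted in C57BL/6J mice, read 765 and 746 in MOER oil, against 423 and 433 in wild type oil (0.80 ± 0.11, adjusted p = 0.00194). Gbp2b, a guanylate-binding protein, differed by 0.59 and Entpd4, a nucleoside diphosphatase, by -0.49, and both calls were lost on leaving out any 1 of the 4 oil arrays. Whether the MOER and wild type pools shared their full genetic background was not tested.

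A run of neighbouring genes of the Ifi200 family, DNA sensors induced by interferon, moved in both directions. Ifi207 read 131 and 98.4 in MOER oil, against 323 and 325 in wild type oil, and was 2.86-fold lower (adjusted p = 0.00019). Ifi209 read 42.5 and 34.2 in MOER oil, dim, against 180 and 155 in wild type oil, at least 2.78-fold lower (adjusted p = 1.64e-05). A probe set shared by Ifi211 and Ifi204 read 309 and 281 in MOER oil, against 677 and 660 in wild type oil. Ifi202b, named here after its values were seen, went the other way, with 150 and 154 in MOER oil, against 6.31 and 3.27 in wild type oil, where it was dim, at least 2.82-fold higher (adjusted p = 8.66e-06). MOER given PPT read 4.0 and 7.57 for Ifi202b, so the 2 MOER groups did not match each other at this gene.

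Male-biased liver genes, those kept high by the pulsed growth hormone release of males, made up the next group. Of 31 tested members 11 were higher and 2 lower in MOER, with a median difference of 0.34, against a median of -0.03 over all genes. Over all genes 2.14% were called higher and 3.64% lower, and each list count is to be read beside these shares. Cyp4a12a and Cyp4a12b, near-identical fatty acid hydroxylases of the cytochrome P450 family, had the largest differences. Cyp4a12a read 1434 and 1313 in MOER oil and 525 and 480 in ERKO oil, against 30.2 and 13.9 in wild type oil, where it was dim, and was at least 25.5-fold higher in MOER (adjusted p = 2.2e-08). Cyp4a12b read 1189 and 952 in MOER oil and 439 and 381 in ERKO oil, against 22.9 and 18.5 in wild type oil, and was at least 19.7-fold higher in MOER (adjusted p = 1.49e-09). Probes of these neighbouring copies may share signal, and both are nonetheless counted among the 11 higher members.

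Nat8, an N-acetyltransferase that makes mercapturic acids, followed the same order with 658 and 631 in MOER oil and 538 and 435 in ERKO oil, against 25.0 and 9.44 in wild type oil, at least 12-fold (adjusted p = 8.92e-06). For Nat8, MOER minus ERKO was not called by the limma test (0.40, adjusted p = 0.525). Susd4, a complement inhibitor, read 125 and 112 in MOER oil, against 41.6 and 38.2 in wild type oil (1.27 ± 0.098). Cyp7b1, the oxysterol 7-alpha-hydroxylase, read 895 and 866 in MOER oil, against 412 and 367 in wild type oil (1.15 ± 0.098). The remaining members whose call held under every alternative were Cyp2d9 (0.91), a steroid hydroxylase, and the complement components C6 (0.89) and C8a (0.85). Calls of the 5 others were lost under at least 1 alternative: Ces2b (0.41), Egfr (0.34) and Nudt7 (0.44) were higher, and Gstp1 (-0.50) and Bcl6 (-0.40) lower. Male-biased members that were not called included the major urinary protein gene Mup3 (0.04) and Hsd3b5 (0.92, adjusted p = 0.0755), which was dim in both genotypes.

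Female-biased liver genes, those favoured by continuous growth hormone, had 2 members higher and 9 lower of 31 tested, with a median of -0.17. Over all genes 2.14% were higher and 3.64% lower, with a median of -0.03. Cyp17a1, also on this list, is described with the steroid enzymes below. Cyp2b13 read 889 and 880 in MOER oil and 1160 and 995 in ERKO oil, against 3317 and 3187 in wild type oil, 3.68-fold lower in MOER (adjusted p = 8.88e-07). Sult3a1, a sulfotransferase, read 1838 and 1672 in MOER oil, against 3740 and 3646 in wild type oil (-1.07 ± 0.13). Hao2 (-0.93), a peroxisomal hydroxyacid oxidase, and Slc22a27 (-0.62), an organic anion transporter, also kept their calls under every alternative. Further calls were lost under at least 1 alternative, with Vldlr (-0.77), Abcd2 (-0.52), Tox (-0.50) and Trim24 (-0.44) lower and Atp6v0d2 (0.63) and Fmo2 (0.49) higher. Cyp2b9 (0.30, adjusted p = 0.0646) and A1bg (-0.33, adjusted p = 0.141), strongly female-biased in other mouse studies, were not called.

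Enzymes that sulfate or hydroxylate steroids were among the genes of largest fold downward, a grouping made after the values were seen. Sult2a3, a hydroxysteroid sulfotransferase, read 284 and 235 in MOER oil and 166 and 180 in ERKO oil, against 51281 and 43095 in wild type oil. It was 182-fold lower in MOER (-7.42 ± 0.17, adjusted p = 9.19e-10). A probe set shared by 4 other Sult2a genes read 113 and 87.8 in MOER oil and 15.3 and 8.50 in ERKO oil, against 4706 and 4824 in wild type oil (-5.37 ± 0.14). On both probe sets wild type thus lay far above both modified genotypes.

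Cyp17a1, the 17-alpha-hydroxylase that makes androgen precursors, read 222 and 216 in MOER oil and 1045 and 902 in ERKO oil, against 1588 and 1593 in wild type oil. It was 7.26-fold lower in MOER (-2.77 ± 0.095, adjusted p = 2.76e-08), and ERKO lay nearer to wild type. Cyp2a22 read 566 and 461 in MOER oil and 577 and 405 in ERKO oil, against 2017 and 2017 in wild type oil, 3.95-fold lower in MOER (adjusted p = 0.000772). Probe sets shared by Cyp3a41a, Cyp3a41b and Cyp3a44, P450s of female liver, read 7206 and 6203 in MOER oil, against 15707 and 14699 in wild type oil (-1.18 ± 0.12). Cyp3a13 read 1135 and 1017 in MOER oil and 3763 and 3473 in ERKO oil, against 2979 and 2932 in wild type oil, 2.75-fold lower in MOER (adjusted p = 6.73e-06). Cyp39a1, an oxysterol 7-alpha-hydroxylase, read 238 and 226 in MOER oil and 715 and 657 in ERKO oil, against 780 and 807 in wild type oil, 3.43-fold lower in MOER (adjusted p = 1.37e-06). For Cyp17a1, Cyp39a1 and Cyp3a13 the 2 MOER arrays thus lay below all 4 arrays of the other 2 genotypes.

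Several other metabolic genes were lower. Csad, which makes hypotaurine on the way to taurine, read 140 and 120 in MOER oil and 503 and 374 in ERKO oil, against 721 and 667 in wild type oil, 5.35-fold lower in MOER (adjusted p = 4.7e-06). Dio1, the deiodinase that activates thyroid hormone, read 577 and 537 in MOER oil and 680 and 520 in ERKO oil, against 1699 and 1606 in wild type oil, 2.97-fold lower in MOER. Arl2bp, a binding partner of a small GTPase, read 53.9 and 45.2 in MOER oil, dim, against 243 and 246 in wild type oil, at least 4.08-fold lower. Pcp4l1 (2.86-fold) and Rab30 (2.68-fold), a Golgi GTPase, completed the 15 genes of largest fold downward. Adgb, the globin-like androglobin, had 24.4 and 26.4 in MOER oil, dim, against 164 and 129 in wild type oil, at least 2.42-fold lower (adjusted p = 2.64e-06).

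Adh6-ps1, an alcohol dehydrogenase locus annotated as a pseudogene, was low in MOER oil and not in MOER given PPT. It read 5.78 and 5.69 in MOER oil, dim, against 479 and 466 in wild type oil, at least 7.87-fold lower (adjusted p = 1.81e-09). ERKO oil read 412 and 351, and MOER given PPT read 534 and 655. The low values were thus found in the 2 MOER oil arrays alone among the arrays of these 4 groups, a pattern shared by neither H2-Ea nor Sult2a3. Ifi207, Ifi209, Rab30, Cyp3a13, Cyp17a1, Cyp39a1 and Arl2bp also had their lowest values of these 4 groups in MOER oil, by a smaller margin. Rab30, for instance, read 109 and 96.4 in MOER oil, 225 and 168 in ERKO oil, and 265 and 270 in MOER given PPT.

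**Figure D2:**
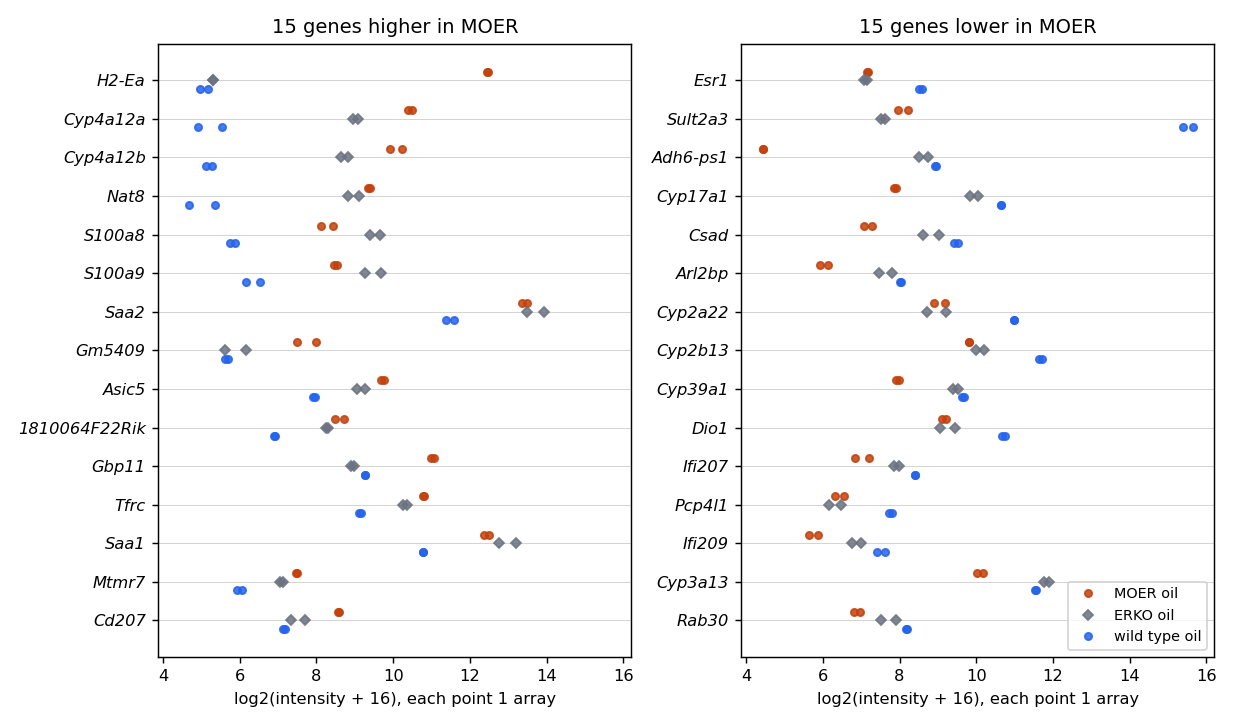
Each point is 1 oil array, with log2(intensity + 16) on the x axis and a gene on each row. The left panel holds the 15 genes of largest fold upward outside the acinar and islet lists, the trypsinogen-like Gm5409 among them, and the right panel the 15 of largest fold downward, with MOER above ERKO (diamonds) and wild type in each row. Genes were chosen among those without overlap between MOER and wild type, so no row overlaps. ERKO lies with MOER for Nat8, Sult2a3 and Dio1 and with wild type for H2-Ea, Cyp39a1 and Gbp11.

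Genes of the acute phase, the plasma proteins that the liver releases in inflammation, included some of the largest folds upward. Of 32 tested members 6 were higher and 1 lower, with a median of 0.20, which became 6 higher and 3 lower with a median of 0.07 when arrays were centred on secreted proteins. Saa2, a serum amyloid A apolipoprotein, read 11546 and 10533 in MOER oil and 15606 and 11502 in ERKO oil, against 3054 and 2630 in wild type oil, 3.89-fold higher in MOER (adjusted p = 1.85e-05). Saa1 read 5798 and 5220 in MOER oil and 9396 and 6959 in ERKO oil, against 1752 and 1744 in wild type oil, 3.15-fold higher in MOER (adjusted p = 3.78e-05). Both modified genotypes lay above wild type on every oil array.

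Saa1 and Saa2 stand side by side and moved together, and the 250 bases before their start sites are shown for that reason. RefSeq places them at chr7:46742981-46743230 on the minus strand and chr7:46751583-46751832 on the plus strand of GRCm38.p6. Capitals mark the letters that differ between the 2 windows in a global alignment, in which 238 of 251 aligned columns (94.8%) were identical.
Saa1: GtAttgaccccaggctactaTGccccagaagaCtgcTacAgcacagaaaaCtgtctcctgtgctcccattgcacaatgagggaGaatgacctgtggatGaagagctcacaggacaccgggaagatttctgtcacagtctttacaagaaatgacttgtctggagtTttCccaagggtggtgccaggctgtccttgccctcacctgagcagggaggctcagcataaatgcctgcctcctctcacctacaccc
Saa2: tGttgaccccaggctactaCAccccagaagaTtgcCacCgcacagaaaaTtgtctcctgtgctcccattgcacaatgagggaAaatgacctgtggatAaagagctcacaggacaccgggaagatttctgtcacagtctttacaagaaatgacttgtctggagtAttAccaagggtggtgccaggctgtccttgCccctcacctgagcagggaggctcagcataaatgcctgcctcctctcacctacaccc
The STAT-type motif TTCNNNGAA, searched on both strands of such windows, was present in 7 of the 26 acute phase genes with a RefSeq window, and in 7.02% of all 32851 windows. It was present in 4 of 22 male-biased and 3 of 24 female-biased genes. Among called genes with a window it was present in 2 of 7 acute phase, 2 of 9 male-biased and 1 of 7 female-biased genes.

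Lcn2, a siderophore-binding protein of liver and neutrophils, read 2364 and 2289 in MOER oil and 5499 and 5025 in ERKO oil, against 875 and 798 in wild type oil (1.46 ± 0.089, adjusted p = 4.91e-06). Apcs, serum amyloid P, read 10896 and 10416 in MOER oil, against 4435 and 4453 in wild type oil (1.26 ± 0.11). The orosomucoids Orm2 (0.87) and Orm3 (0.76) were higher, and Hamp, the iron hormone hepcidin, was lower at 3830 and 3802 in MOER oil, against 4874 and 5493 in wild type oil (-0.44). The calls of Orm3 and Hamp were lost without single oil arrays. Haptoglobin (Hp, 0.24), the fibrinogen chain Fgb (0.12) and Crp (-0.02) were not called.

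Neutrophil markers were higher in the same livers. Of 11 tested members 7 were higher and 0 lower, with a median of 0.77. S100a8, a calcium-binding protein abundant in neutrophils, read 330 and 261 in MOER oil and 793 and 661 in ERKO oil, against 42.6 and 37.2 in wild type oil, dim, at least 5.45-fold higher in MOER (adjusted p = 2.04e-06). Its partner S100a9 read 338 and 352 in MOER oil and 806 and 602 in ERKO oil, against 76.8 and 55.8 in wild type oil, 5.28-fold higher in MOER (adjusted p = 1.9e-05). Together with Lcn2 these were the 3 members whose call held under every alternative.

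Ngp (1.63), Retnlg (0.86), Camp (0.77) and Ly6g (0.46) were also called, and each lost its call without at least 1 oil array. The summed intensity of the 11 members was 3437 to 3687 in MOER oil and 7052 to 8299 in ERKO oil, against 1257 to 1364 in wild type oil, and no member read 0 on an oil array. Lcn2, which liver also makes, gave most of each sum. It alone read 2364 and 2289 in MOER oil and 5499 and 5025 in ERKO oil, against 875 and 798 in wild type oil. Elane, Cxcr2 and Ltf, which also mark neutrophils, were dim in both genotypes, and Mpo and Csf3r were too dim on the arrays to be tested. In pooled RNA of whole liver, more cells of a type and more RNA per cell cannot be told apart. The part that neutrophils played in the acute phase differences was not tested.

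Other blood-related genes were few. Jchain, which joins secreted immunoglobulin, read 144 and 135 in MOER oil and 248 and 205 in ERKO oil, against 24.3 and 21.7 in wild type oil, dim, at least 2.59-fold higher in MOER (adjusted p = 2.21e-06). It was the 1 lymphocyte marker called of 12 tested. Tfrc, the transferrin receptor, read 1756 and 1743 in MOER oil and 1289 and 1197 in ERKO oil, against 540 and 555 in wild type oil, 3.19-fold higher in MOER (adjusted p = 2.68e-06). Cd207, langerin, a lectin of dendritic cells, read 368 and 360 in MOER oil and 193 and 146 in ERKO oil, against 128 and 123 in wild type oil (2.91-fold). Of 19 macrophage and Kupffer cell markers Vsig4 was higher (0.46) and Marco lower (-0.96), both calls being lost without single oil arrays. Further, 0 of 20 endothelial markers were called (6 were called lower with arrays centred on secreted proteins).

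Further genes in the 15 of largest fold upward had varied roles. Gbp11, a guanylate-binding protein, read 2109 and 2026 in MOER oil and 459 and 491 in ERKO oil, against 598 and 594 in wild type oil (3.47-fold). Asic5, an acid-sensing type channel known in rodents to respond to bile acids, read 849 and 812 in MOER oil and 602 and 514 in ERKO oil, against 225 and 233 in wild type oil (3.62-fold). 1810064F22Rik (3.59-fold) and Mtmr7 (at least 3.02-fold), a phosphoinositide phosphatase, were higher as well. Slc10a2, the sodium-dependent bile acid transporter, was among the 10 higher genes of smallest adjusted p, at 1395 and 1361 in MOER oil, against 501 and 507 in wild type oil (2.74-fold, adjusted p = 4.02e-06).

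Lipid genes are given by branch. In cholesterol synthesis 2 of 20 tested genes were higher and 0 lower, Insig1 (0.44), a brake on SREBP processing, and squalene epoxidase, Sqle (0.43), with a list median of 0.21. Both calls were lost under 12 of 23 alternatives, and with arrays centred on their median 8 were higher. In fatty acid synthesis 4 of 19 were higher, Acly, Acss2, Insig2 and Thrsp (0.38 to 0.53), and 3 lower. Pklr, liver pyruvate kinase, read 572 and 597 in MOER oil, against 1121 and 1157 in wild type oil (-0.94 ± 0.090, adjusted p = 0.000155). Me1, malic enzyme, read 1386 and 1406 in MOER oil, against 2236 and 2272 in wild type oil (-0.69 ± 0.079). Mlxipl (-0.39), which encodes the glucose-sensing factor ChREBP, was the third gene called lower. Pklr and Me1 kept their calls under every alternative. Fasn (-0.05), Scd1 (0.08) and Srebf1 (0.35, adjusted p = 0.114) were not called.

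Genes of fatty acid use were lower where they were called. Of 26 tested genes of fatty acid oxidation and PPAR-alpha targets 0 were higher and 6 lower, with a median of -0.22. Vnn1, the pantetheinase vanin 1, read 808 and 776 in MOER oil, against 1706 and 1581 in wild type oil (-1.04 ± 0.092, adjusted p = 8.85e-05). Cpt1a, which admits long-chain fatty acids into mitochondria, read 739 and 744 in MOER oil, against 1263 and 1172 in wild type oil (-0.70 ± 0.089). Acot1 (-0.75), Ppara itself (-0.48), Acadl (-0.36) and Eci2 (-0.36) lost their calls under at least 1 alternative. Among 26 genes of lipid droplets and triglyceride turnover, where Cpt1a also stands, 0 were higher and 5 lower, with Mgll (-0.56), Lpin2 (-0.54), Fitm2 (-0.39) and Plin2 (-0.34). Each of these 4 calls was lost without single oil arrays.

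In bile acid synthesis and transport 1 of 26 tested genes was higher, Cyp7b1, and 3 were lower, the phospholipid exporter Abcb4 (-0.56), the sterol transporter subunit Abcg8 (-0.56) and Abcc3 (-0.53), and these 3 calls were lost without single oil arrays. Cyp7a1, which catalyses the first and slowest step from cholesterol to bile acids, read 3287 and 3123 in MOER oil, against 2623 and 2554 in wild type oil, and was not called (0.31 ± 0.086, adjusted p = 0.0671). Of 21 genes of gluconeogenesis and insulin response 1 was higher and 7 lower, with a median of -0.33. Slc2a2, the glucose transporter of hepatocytes, read 1383 and 1502 in MOER oil, against 2198 and 2319 in wild type oil (-0.64 ± 0.10, adjusted p = 0.00511). Pck1 (-0.45), Pygl (-0.46), Pcx (-0.44) and Gys2 (-0.43) were lower, and the glycogen-targeting subunit Ppp1r3b was higher (0.49). Each of these 8 calls was lost under at least 1 alternative, leaving out an oil array among them.

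The list of oestrogen-responsive liver genes had 0 members higher and 2 lower of 20 tested, Cyp17a1 and Cish (-0.55), a feedback inhibitor of cytokine signalling. The counts depended on the scale, with 3 higher and 3 lower when arrays were centred on their median, and 0 higher and 5 lower when centred on secreted proteins. Lifr (0.06), Nr0b2 (0.27), Igf1 (0.26) and Socs2 (-0.39, adjusted p = 0.0890) were not called. Among 17 growth hormone signalling genes 0 were higher and 4 lower, Stat5b (-0.61), Igfbp1 (-0.59), Cish and Bcl6. Stat5b, which carries the growth hormone signal to the genome, read 237 and 222 in MOER oil and 235 and 207 in ERKO oil, against 371 and 345 in wild type oil. The growth hormone receptor gene Ghr was not called (0.03). All 4 calls were lost without 1 or more oil arrays.

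Endoplasmic reticulum chaperones and translocation genes were mostly higher where called, 8 of 38 tested against 1 lower. Hspa5, the chaperone BiP, read 5654 and 5587 in MOER oil and 6553 and 5894 in ERKO oil, against 3965 and 3892 in wild type oil (0.52 ± 0.085, adjusted p = 0.00715). Creld2 (0.73), Manf (0.61), Sdf2l1 (0.55), Pdia6 (0.54), Hsp90b1 (0.39), Hyou1 (0.37) and Spcs2 (0.35) were higher as well. Herpud1, a component of degradation at the same membrane, was lower at 971 and 1029 in MOER oil, against 1750 and 1750 in wild type oil (-0.80 ± 0.11). Herpud1 alone kept its call under every alternative. The list median of 0.11 became -0.02 with arrays centred on secreted proteins, where 5 were higher and 3 lower.

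Among ATF4 targets of amino acid stress 3 of 27 were higher and 3 lower. Asns, asparagine synthetase, read 151 and 128 in MOER oil and 204 and 158 in ERKO oil, against 33.2 and 33.3 in wild type oil, where it was dim (1.65 ± 0.16, adjusted p = 0.000153). Interferon-induced genes had 1 member higher of 30, Ifi27 (0.66), and 5 lower, Irf7 (-0.62), Bst2 (-0.62), Ifit3 (-0.56), Ifit1 (-0.46) and Rtp4 (-0.43). Each of these 6 calls was lost without single oil arrays, and 16 members were lower with arrays centred on secreted proteins and 11 without the ERKO arrays. Of 21 clock genes 0 were higher and 5 lower. Dbp, a clock output factor, read 205 and 240 in MOER oil, against 474 and 494 in wild type oil (-1.07 ± 0.11, adjusted p = 0.000337), and Nr1d1, the repressor REV-ERB alpha, read 252 and 256 in MOER oil, against 415 and 455 in wild type oil (-0.74 ± 0.095). Both calls held under every alternative, and those of Bhlhe40 (-0.68), Hlf (-0.56) and Nr1d2 (-0.46) did not. Arntl (0.30, adjusted p = 0.0631) and Per2 (-0.14) were not called, and no hour of death was stated in the sources used here. The E-box CACGTG was present in 6 of 18 clock genes with a RefSeq window, in 0 of the 4 called ones among them, and in 6.02% of all windows.

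Drug metabolism genes had 4 higher and 3 lower of 31 tested. Cyp2c55 read 986 and 805 in MOER oil, against 353 and 333 in wild type oil (1.34 ± 0.13, adjusted p = 0.000158), and Ephx1, microsomal epoxide hydrolase, was lower (-0.63 ± 0.084). In urea cycle and amino acid catabolism 2 were higher and 2 lower of 33, with Oat, the pericentral ornithine aminotransferase, at 9640 and 9421 in MOER oil, against 5029 and 5214 in wild type oil (0.89 ± 0.100). Of 14 pericentral genes 3 were higher and of 11 periportal genes 2 were lower, while the pericentral enzymes Glul (0.02) and Cyp2e1 (-0.00) were not called. Immediate early and heat shock genes had 2 lower of 24, with Dusp1, a phosphatase induced by stress, at 354 and 315 in MOER oil, against 620 and 663 in wild type oil (-0.91 ± 0.097). Of 39 genes of oxidative phosphorylation 2 were lower, where 3.64% of all genes were. Of 28 cell cycle genes and 11 genes of AMPK and its kinases 0 were called either way, with medians of 0.02 and -0.15. With arrays centred on secreted proteins 5 of the 11 AMPK genes were lower, and 2 were without the ERKO arrays. Stellate cell markers gave Col5a2 higher (0.87) and Lrat, which stores retinol, lower (-0.73) of 21.

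Lists of other cell types held few calls, and each call named here except those of Tfrc and Esr1 was lost under at least 1 alternative. Of 5 red cell genes Tfrc and Alas2 (0.45), which starts haem synthesis in red cell precursors, were higher and Car2 (-0.70), a carbonic anhydrase, lower. Of 19 skeletal muscle genes Neb (0.65) and Tnnt3 (0.50), both of the muscle fibre, were higher. Pparg, the fat cell receptor, was the 1 call of 7 fat cell genes (-0.62), Cdh1, E-cadherin, that of 9 bile duct genes (-0.67) and the chemokine gene Cxcl13 that of 8 genes of spleen and lymph node (-0.65). Of 12 genes of squamous and airway epithelium 0 were called. Of 23 hepatic secreted proteins complement C9 was called (0.49, higher), and of 16 genes for the receptor and its partners Esr1 and Egfr.

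Counts of several lists moved by over 1.5-fold with the scale. With arrays centred on secreted proteins the number called lower became 13 of 26 for lipid droplets, 11 of 26 for fatty acid oxidation, 7 of 26 for bile acids, 8 of 17 for growth hormone signalling and 8 of 31 for drug metabolism. It became 10 of 21 for clock genes, 8 of 39 for oxidative phosphorylation and 7 of 33 for urea cycle and amino acid catabolism. With arrays centred on their median the number called higher became 11 of 32 for the acute phase, 6 of 31 for female-biased genes, 9 of 31 for drug metabolism, 6 of 33 for urea cycle and amino acid catabolism and 5 of 14 for pericentral genes.

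**Figure D3:**
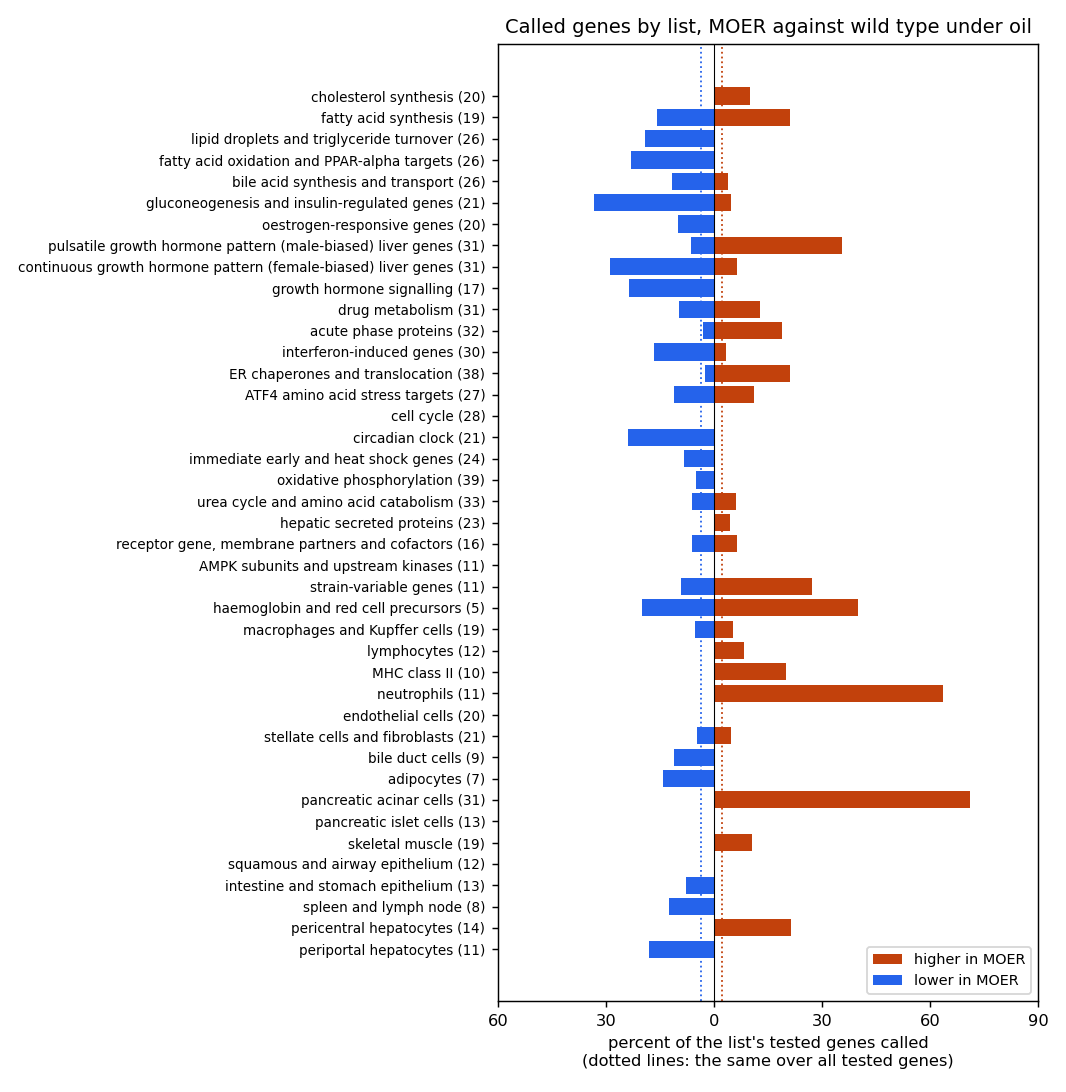
Bars give the percent of each list's tested genes (number in brackets) that were called higher in MOER (to the right) or lower in MOER (to the left) under oil. Dotted lines give the same over all 13987 genes, 2.14% higher and 3.64% lower. Acinar cells (22 of 31) and neutrophils (7 of 11) have the longest bars to the right, and gluconeogenesis (7 of 21) has the longest to the left.

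Pancreatic acinar transcripts formed the largest coherent difference. Of 31 tested members 22 were higher in MOER oil and 0 lower, with a median of 1.92, and 20 of the 22 calls held under every alternative. The list held 56 symbols, and some members, such as Reg2 and Klk1, were not bright enough to be tested. Members such as Cpb1 and 2210010C04Rik, dim in all other groups, passed the brightness filter only through the 2 MOER oil arrays. The number of such members was not counted. The filter thus favoured this count and median. Cpb1, pancreatic carboxypeptidase B, read 13211 and 12058 in MOER oil and 22.9 and 34.0 in ERKO oil, against 17.2 and 17.6 in wild type oil, where it was dim. It was at least 234-fold higher in MOER (8.56 ± 0.14, adjusted p = 4.63e-11). Try4, a trypsinogen, read 25170 and 16725 in MOER oil, against 49.6 and 82.4 in wild type oil, 309-fold higher (adjusted p = 3.41e-08). Neither gene overlapped between the genotypes.

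Other digestive enzymes were raised to lower levels. 2210010C04Rik, a trypsin-like gene, read 10148 and 10563 in MOER oil, against 33.0 and 23.8 in wild type oil, at least 192-fold higher (adjusted p = 2.77e-09). Ctrl, a chymotrypsin-like protease, read 3878 and 3851 in MOER oil, against 38.2 and 30.4 in wild type oil, at least 71.7-fold higher (adjusted p = 4.76e-10). Rnase1, pancreatic ribonuclease, read 2983 and 2849 in MOER oil, against 30.1 and 29.7 in wild type oil (at least 54.1-fold). Carboxypeptidase Cpa1 read 2458 and 2467 in MOER oil, against 22.9 and 44.7 in wild type oil (at least 45.7-fold). Cel, the bile salt-stimulated lipase, read 869 and 779 in MOER oil, against 15.9 and 15.3 in wild type oil (at least 15.3-fold). The trypsins Try5 and Try10 were at least 34.4-fold and 11.6-fold higher, and the zymogen granule protein Zg16 at least 10.3-fold. Gm5409, a trypsinogen-like gene outside the acinar list and among the 15 other genes of largest fold, read 239 and 165 in MOER oil, against 35.8 and 33.0 in wild type oil, dim, at least 3.69-fold higher, and was dim in each of the other groups.

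The amylase genes share probe sets, so a copy cannot be named. One probe set of Amy2a2, Amy2b and Amy2a5 read 1602759 and 1219897 in MOER oil, against 1884 and 1871 in wild type oil (9.53 ± 0.12, adjusted p = 9.55e-12). Those MOER readings lie above the top of a 16-bit scan and the highest reading of any other probe set was 51281, so the size of this difference is uncertain. Another 4 probe sets of the same symbols carried identical values of 3880 and 3780 in MOER oil, against 1727 and 1741 in wild type oil, 2.21-fold higher. The fold over wild type thus differed by probe set. Under PPT, MOER was also above wild type by the limma test. The difference there was 0.75 (adjusted p = 0.000812) on the first probe set and 0.92 (adjusted p = 1.67e-05) on the 4 others. Under oil the 4 others differed by 1.14. A probe set shared by Prss1, Prss3, Gm10334 and Gm5771 read 822 and 257 in MOER oil, against 60.01 and 69.38 in wild type oil, the widest gap between MOER replicates of those named here.

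The other members called higher had differences of 0.73 (Gm5771) to 4.01 (Pnliprp1, a lipase-related protein), with the regenerating protein Reg1 at 3.71 and the granule membrane protein Gp2 at 2.76. The 9 members not called were Aqp8, Bhlha15, Cela3a, Ctrc, Erp27, Pla2g1b, Prss3, Ptf1a and Tff2, with differences of 0.05 to 0.44. Ptf1a, which drives acinar identity, read 113 and 136 in MOER oil, against 102 and 122 in wild type oil. Bhlha15, the secretory factor MIST1, read 144 and 191 in MOER oil, against 142 and 181 in wild type oil. Aqp8 is also a liver aquaporin and read 2402 and 2473 in MOER oil, against 2247 and 2245 in wild type oil.

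The summed intensity of the 31 tested members was 58357 to 68511 in MOER oil and 3845 to 3965 in ERKO oil, against 3793 to 3892 in wild type oil. In the PPT groups it was 3759 to 3864 in MOER, 4028 to 4227 in ERKO and 8456 to 8520 in wild type, where Aqp8 alone gave 6127 and 6238. The enzymes were thus high in the 2 MOER oil arrays and in no other group. Of 13 tested islet markers 0 were called, with Ins2 at 98.1 and 105 in MOER oil, against 70.2 and 88.1 in wild type oil (0.31, adjusted p = 0.214). All 13 had a difference above 0, with a median of 0.22, where 6341 of 13987 genes did. Ttr, also a hepatocyte gene, is among the 13. Intestinal and gastric markers had 0 higher and 1 lower of 13. Whether pancreatic tissue came with the MOER oil livers was not tested. Hepatocyte genes such as Alb (0.05) and Ttr (0.02) did not pass the threshold in the same arrays.

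**Figure D4:**
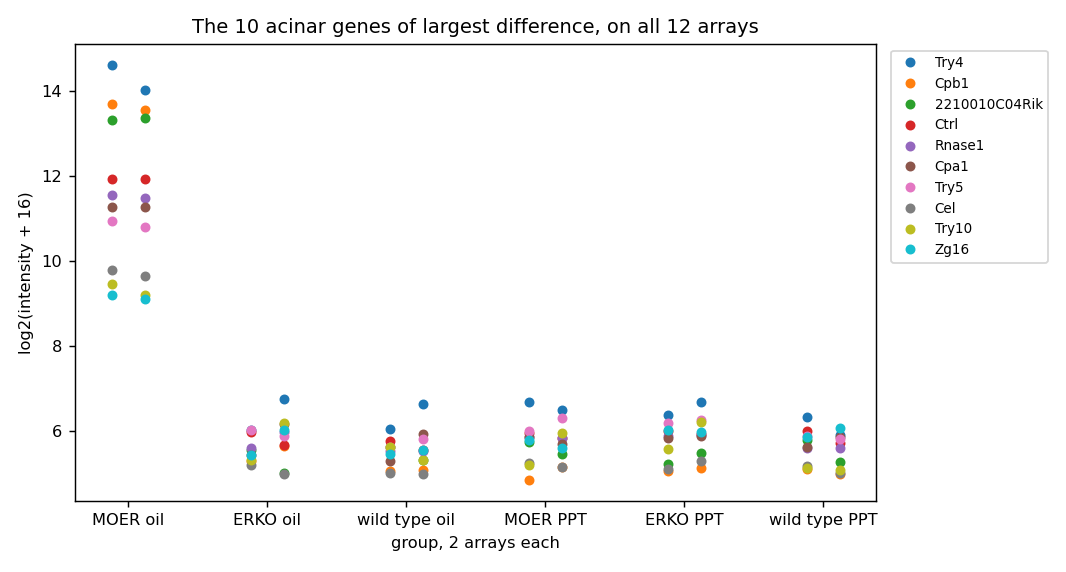
Each point is 1 gene on 1 array, for the 10 acinar genes of largest fold, with log2(intensity + 16) on the y axis and the 6 groups, 2 arrays each, on the x axis. All 10 genes lie above 9 on both MOER oil arrays and below 7 on each of the other 10 arrays.

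Motifs were counted near the start sites of acinar genes. The trimeric factor PTF1 is known to bind a CACCTG E-box together with a TTTCCC box in promoters of acinar enzymes. CACCTG, on either strand of the 250 bases before the start, was present in 10 of the 17 called acinar genes that have a RefSeq window, in 13 of the 23 tested ones, and in 17.2% of all windows. TTTCCC was present in 8 of the 17, 10 of the 23 and 21.9% of all windows, and both were present in 5 of the 17, 6 of the 23 and 3.61% of all windows. The windows of Cpb1, Try4 and Ctrl are shown for their large differences and that of Cel because it holds both motifs, which was seen before it was chosen. Capitals mark the 2 motifs (CAGGTG and GGGAAA are the same letters on the other strand). They lie in GRCm38.p6 on the minus strand at chr3:20275734-20275983 (Cpb1), chr8:105933863-105934112 (Ctrl) and chr2:28563404-28563653 (Cel), and on the plus strand at chr6:41302022-41302271 (Try4).
Cpb1: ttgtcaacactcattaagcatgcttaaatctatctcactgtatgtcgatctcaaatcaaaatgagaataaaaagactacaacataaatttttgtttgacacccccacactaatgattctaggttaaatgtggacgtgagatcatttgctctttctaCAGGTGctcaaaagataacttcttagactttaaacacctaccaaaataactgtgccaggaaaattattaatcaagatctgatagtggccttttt
Try4: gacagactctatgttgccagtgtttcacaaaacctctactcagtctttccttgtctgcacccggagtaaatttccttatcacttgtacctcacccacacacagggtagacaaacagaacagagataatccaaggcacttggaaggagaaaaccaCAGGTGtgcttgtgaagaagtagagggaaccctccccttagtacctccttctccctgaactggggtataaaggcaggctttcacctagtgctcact
Ctrl: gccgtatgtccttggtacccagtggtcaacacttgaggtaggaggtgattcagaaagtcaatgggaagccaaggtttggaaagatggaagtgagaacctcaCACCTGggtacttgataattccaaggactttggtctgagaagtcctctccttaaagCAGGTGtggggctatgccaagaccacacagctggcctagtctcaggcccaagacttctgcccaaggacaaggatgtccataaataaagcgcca
Cel: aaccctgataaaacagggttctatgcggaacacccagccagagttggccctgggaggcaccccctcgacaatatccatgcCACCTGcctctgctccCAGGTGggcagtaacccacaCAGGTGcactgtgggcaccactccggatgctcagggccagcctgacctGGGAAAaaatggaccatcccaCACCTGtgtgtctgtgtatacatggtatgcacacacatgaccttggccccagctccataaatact
Cpb1 and Try4 each held 1 CACCTG, Ctrl 2, and Cel 4 with 1 TTTCCC. A match of letters is a description of the window and does not show binding.

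The same genotype difference could be read in the 4 arrays given PPT, which share no array with the oil comparison. Under PPT 6794 probe sets (35.5%) and 5208 genes (37.2%) were called, and 4418 probe sets without wild type PPT array 2. Of the 300 genes higher in MOER under oil, 148 (49.3%) were higher under PPT and 50 (16.7%) lower, where 16.8% of all genes were higher and 20.5% lower. Of the 509 genes lower in MOER under oil, 143 (28.1%) were lower under PPT and 179 (35.2%) higher. Among non-pancreatic genes past 2-fold, 27 of 37 higher genes were higher under PPT and 5 lower, and 16 of 29 lower genes were lower under PPT and 8 higher.

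Genes that differed in both settings included H2-Ea, the Cyp4a12 pair, Nat8, Sult2a3, Csad, Cyp17a1, Arl2bp, Cd207 and Esr1. H2-Ea differed by 7.39 under oil and 6.34 under PPT. Csad read 147 and 130 in MOER given PPT, against 727 and 793 in wild type given PPT (-2.33, adjusted p = 4.79e-07), next to -2.29 under oil. Cyp17a1 read 2450 and 2552 in MOER given PPT, against 10535 and 9707 in wild type given PPT (-2.01). Cd207 differed by 1.71 under PPT and 1.43 under oil. These genotype differences were thus present with and without the agonist.

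Other genes turned round. Tfrc read 313 and 364 in MOER given PPT, against 1385 and 1335 in wild type given PPT, a difference of -1.96 under PPT and 1.65 under oil. Cyp3a13 read 3427 and 3729 in MOER given PPT, against 1187 and 1200 in wild type given PPT, a difference of 1.57 under PPT and -1.45 under oil. Dio1 differed by 1.19 under PPT and -1.54 under oil, and Adh6-ps1 by 1.00 and -4.49. Endoplasmic reticulum chaperones, 8 higher and 1 lower under oil, had 1 higher and 31 lower of 38 under PPT. In acute phase genes 24 of 32 were higher under PPT and 1 lower. Acinar genes had 4 higher and 3 lower of 31 under PPT, and 0 of the 10 with the largest oil fold were called there.

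The difference between the oil and PPT values was itself tested, and 4124 probe sets (21.6%) were called, among them 11 of the 15 genes of largest fold upward, 12 of the 15 downward and all 10 acinar genes. It was called for 147 of the 300 higher genes and 342 of the 509 lower genes, where 23.9% of all genes were called. These genes were chosen by the oil difference, a term of the value tested, so nothing is read from the counts against that share. Cyp4a12a, Cyp4a12b, Nat8 and Cd207 upward, and Csad, Arl2bp and Esr1 downward, were not called for it, which does not show that their differences were equal.

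**Figure D5:**
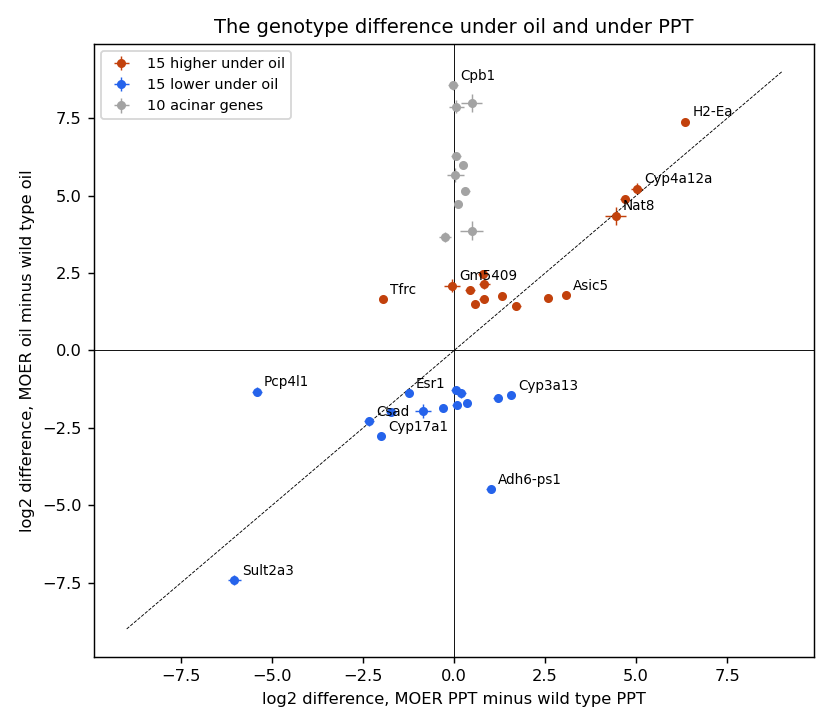
Each point is 1 gene, with the log2 difference of MOER minus wild type under PPT on the x axis and under oil on the y axis, bars giving 1 standard error of the fit, and the dashed line equal values. Cyp4a12a, Nat8 and Csad lie near the line, and H2-Ea and Sult2a3 lie farther from 0 under oil than under PPT. Tfrc and Cyp3a13 lie in the quadrants of opposite sign, and the 10 acinar genes stand in a column near 0 under PPT.

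ERKO livers under oil were read beside MOER, with the same 2 wild type arrays behind both, so their values are given side by side only. ERKO minus wild type called 957 probe sets (5.01%), and MOER minus ERKO called 392 (2.05%). Without ERKO oil array 1 these counts were 6329 and 2151, and without wild type oil array 2 they were 230 and 253. Cyp4a12a was 5.22 above wild type in MOER and 3.80 above it in ERKO, with MOER minus ERKO at 1.42 (adjusted p = 0.00181). Sult2a3 was at -7.42 in MOER and -7.96 in ERKO, with MOER minus ERKO not called (0.54, adjusted p = 0.149). Cyp2b13 was at -1.86 and -1.58, and Dio1 at -1.54 and -1.45, both not called between the 2 modified genotypes. S100a8 was at 2.47 in MOER and 3.73 in ERKO, and was lower in MOER than in ERKO (-1.26, adjusted p = 0.000688).

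Other genes set MOER apart from ERKO. H2-Ea differed by 7.16 (adjusted p = 1.1e-11), Gbp11 by 2.08, Cyp17a1 by -2.07, Cyp3a13 by -1.74, Csad by -1.63, Arl2bp by -1.60 and Cyp39a1 by -1.50 in MOER minus ERKO, with adjusted p-values of 0.000134 or less. Of these, ERKO itself differed from wild type for Cyp17a1 (-0.70, adjusted p = 0.00237) and Csad (-0.66, adjusted p = 0.0252), and not by the test for H2-Ea (0.23), Gbp11 (-0.32), Cyp3a13 (0.29), Arl2bp (-0.39) and Cyp39a1 (-0.21). All 10 acinar genes named above were higher in MOER than in ERKO, by 3.43 to 8.16.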

How the data were processed

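RNA of whole liver was measured on 12 arrays, 2 for each of 6 groups. The deposited table holds 1 linear hybridisation intensity per probe set and array, 345780 values of which 389 were 0. The steps by which the authors summarised probes and scaled arrays are not given in the sources used here. The authors, per the labels, tested with the program Cyber-T at 99.99% confidence and a minimum change of 2-fold. The intensities were used as deposited, and their number of 2 arrays a group limits the precision.

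Of the probe sets, 21780 had 1 gene symbol in the platform annotation, 1605 had several and 5430 had none. With 1 symbol, 21689 matched the RefSeq table of GRCm38.p6, which was used for names, gene order and promoter windows. Genes were named from probe sets with 1 symbol.

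Tests covered probe sets brighter than their array's 40th percentile on at least 2 arrays, on log2(intensity + 16). A limma 3.58.1 fit in R 4.3.3 (lmFit of 6 group means, eBayes without trend, 6 residual degrees of freedom, 10.47 after moderation) gave two-sided tests, adjusted by the Benjamini-Hochberg method over 19119 probe sets. The fit was tested on simulated data. Summaries used Python 3.11.15.

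The members and the 41 gene lists (24 for pathways, 17 for cell types) were chosen with earlier results of these data known. Of 968 list symbols 779 were tested. Genes named were Esr1 and its neighbours, list members, the 15 of largest fold each way outside the acinar and islet lists, the 10 of smallest adjusted p each way, and the 10 acinar genes of largest fold, and exceptions are stated. The 15 of largest fold and the 10 of smallest adjusted p were taken from called genes whose MOER and wild type oil arrays did not overlap. Alternatives were pseudocounts of 1 and 64, no filter and a filter at the 60th percentile, 3 scalings, a trended fit, fits on fewer arrays, a replicate block, a Cyber-T-style test, a 2-fold minimum and leaving out each array. Calls of single genes were followed under 23 of these, without the Cyber-T-style test and the 2-fold minimum.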

Additional observations from a re-analysis of the deposited data

Results flagged for a closer look

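For 33 of the genes named above, the MOER minus wild type difference under oil differed from that under PPT, by the limma test of the difference itself over 12 arrays. This held for 11 of the 15 genes of largest fold upward, 12 of the 15 downward and all 10 acinar genes, where 21.6% of all probe sets were called. The genes were chosen by the oil difference, a term of the value tested, so nothing is read from these counts against that share. Each value below is the oil difference minus the PPT difference on the log2(intensity + 16) scale, and each adjusted p was under 0.05.

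Outside the acinar list, genes with a more positive difference under oil were Tfrc (3.61), S100a8 (1.69), Saa2 (1.53), S100a9 (1.32), H2-Ea (1.06), Mtmr7 (0.91), Saa1 (0.84) and Gbp11 (0.46). Asic5 (-1.28) and 1810064F22Rik (-0.88), both higher in MOER under oil, had a difference that was lower under oil than under PPT. Pcp4l1 (4.10), though lower in MOER under oil, had a more positive difference there than under PPT.

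Of the other genes of the 15 downward, 11 were called with a more negative difference under oil, and Csad, Arl2bp and Esr1 were not called. The largest of these values belonged to the pseudogene Adh6-ps1 (-5.49), followed by Cyp3a13 (-3.02), the deiodinase gene Dio1 (-2.73) and the oxysterol hydroxylase gene Cyp39a1 (-2.06). Then came Ifi209 (-1.83), Ifi207 (-1.59), Cyp2b13 (-1.54), Sult2a3 (-1.38), Rab30 (-1.34), Cyp2a22 (-1.09) and Cyp17a1 (-0.76).

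The acinar values were the largest: Cpb1 (8.61), 2210010C04Rik (7.82), Try4 (7.52), Ctrl (6.22), Rnase1 (5.76), Cpa1 (5.64), Try5 (4.85), Cel (4.62), Zg16 (3.92) and Try10 (3.39). The trypsinogen-like Gm5409 (2.14) is outside the acinar list. The summed acinar intensity was 58357 to 68511 in MOER oil, against 3759 to 3864 in MOER given PPT, and its part in the differences of liver genes was not tested.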

How the results depend on the processing

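Counts of probe sets called moved with the processing. Of 170 named or called list genes, 0 reversed under any of 23 alternatives, 78 kept their call under all of them and 92 lost it under at least 1. These 23 leave out the Cyber-T-style test and the 2-fold minimum, which genes under 2-fold cannot pass. The 39 genes of largest fold, acinar genes included, were among the 78. Other list members were not followed gene by gene, and the median of chaperone genes (0.11) became -0.02 and that of drug metabolism genes (0.05) became -0.08 with arrays centred on secreted proteins. The 1082 calls of MOER minus wild type under oil became 696 with no filter on dim probe sets, 1670 with arrays centred on their median, 3511 with arrays centred on secreted proteins, 3200 without the ERKO arrays, 128 with a Cyber-T-style test and 180 with a 2-fold minimum. Leaving out 1 array in turn gave 249 to 3332, and where a group kept 1 array, that array is assumed to vary like the other groups.

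Under PPT the 6794 calls became 10334 (centred on secreted proteins), 1230 (Cyber-T-style), 1229 (2-fold) and 4418 to 8710 (1 array left out). The 4124 calls of the oil minus PPT difference became 1354 with the 2-fold minimum and 2959 to 5607 with 1 array left out, and no Cyber-T-style test was run for it. The 957 calls of ERKO minus wild type became 552 (no filter), 1654 (median), 1674 (quantile), 1626 (trended fit), 80 (arrays of both groups only), 88 (Cyber-T-style), 109 (2-fold) and 230 to 6329 (1 array left out). The 392 calls of MOER minus ERKO became 236, 899, 813, 767, 60, 63 and 80 under the same 7 settings, 825 centred on secreted proteins and 123 to 2151 with 1 array left out. Apart from the arrays or probe sets left out, the cause was not tested. Esr1 stayed between -1.41 and -1.34 with 1 array left out.

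With the replicate block 1089 probe sets were called under oil, 434 higher and 655 lower, and 990 were shared with the 1082. Arrays of equal number deviated together among the 3 oil groups (correlations of 0.28 to 0.38) but not over pairs with PPT groups (-0.15 to 0.13), so the numbers were not taken as pairs. The 1082 called probe sets held 1021 distinct sets of values.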

Other observations

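Genes outside the lists also differed by over 2-fold under oil, and those given here were chosen after their values were seen. Angptl4, a secreted inhibitor of lipoprotein lipase, read 166 and 158 in MOER oil and 351 and 221 in ERKO oil, against 422 and 407 in wild type oil (-1.28 ± 0.17, limma adjusted p = 0.00173), while its difference under PPT was 1.03. Pctp, the phosphatidylcholine transfer protein, read 582 and 569 in MOER oil and 284 and 251 in ERKO oil, against 1233 and 1225 in wild type oil (-1.07 ± 0.09), and was not called under PPT (-0.08). Both MOER arrays lay between ERKO and wild type for Pctp. Retsat, retinol saturase, read 925 and 868 in MOER oil and 1109 and 949 in ERKO oil, against 1891 and 1796 in wild type oil (-1.03 ± 0.10). Slc25a30, a mitochondrial carrier, read 158 and 162 in MOER oil and 279 and 243 in ERKO oil, against 404 and 417 in wild type oil (-1.28 ± 0.10), and MOER was the lowest of the 3 genotypes.

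Upward, Nat8f5, a gene beside Nat8, read 191 and 154 in MOER oil and 164 and 157 in ERKO oil, against 76.2 and 54.8 in wild type oil (2.65-fold higher). Rps3a1, a ribosomal protein gene, read 7047 and 6672 in MOER oil and 4750 and 4159 in ERKO oil, against 3611 and 3088 in wild type oil (2.05-fold higher). Chil1, a chitinase-like secreted protein, read 134 and 137 in MOER oil and 123 and 116 in ERKO oil, against 54.5 and 64.1 in wild type oil (2.29-fold higher). None of these genes overlapped between MOER and wild type arrays under oil. With 2 arrays a group this also held for genes not called, such as Ppp1r14c and Myct1. Over all tested probe sets 5.66% were called, and the share without overlap was not counted.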
